A study of Mus musculus with 20 samples.

Results

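The 51 genes described here encode the matrix metalloproteinases (Mmp, 23 genes), their tissue inhibitors (Timp, 4 genes), the ADAMTS proteases (Adamts, 19 genes) and the ADAMTS-like proteins (Adamtsl, 5 genes). They were taken by symbol from the 34291 rows of a count table of mouse heart RNA, with earlier results of these data known. The samples were 10 hearts of rapamycin-fed mice and 10 hearts of control-fed mice. The rapamycin group was C57BL/6 mice put at 24 months of age on food holding 14 ppm rapamycin, an inhibitor of the growth-regulating kinase complex mTORC1, and kept on it for 3 months. The control group was C57BL/6 mice of the same age given the control diet over the same 3 months. Hearts of both groups were collected at 27 months, so every animal was old, and the groups compared do not include young animals. Whole powdered hearts gave the RNA, so each library mixes muscle, stromal, vascular and immune cells, and fewer cells of a type cannot be told apart from less RNA per cell. The labels name neither the sex of the mice nor any batch.

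Matrix metalloproteinases are zinc proteases that cut collagens, elastin, laminins and other proteins outside the cell. Most are secreted as inactive proforms, and some, the membrane-type members, stay anchored on the cell surface. Timp proteins bind the active site and block it. ADAMTS proteases carry thrombospondin repeats and cut proteoglycans, process procollagens or bind microfibrils, and the ADAMTS-like proteins share those repeats but lack a protease domain. In the heart these families are known for their part in turnover of the collagen network between muscle cells. RNA levels, as measured here, do not show how much of a protease is in its active form.

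Many Mmp genes lie in 1 cluster on chromosome 9, and what these genes share was looked for in the RefSeq sequences that precede their starts (build GRCm38.p6). Of the 51 members, 36 had an entry. The core of the motif bound by AP-1, the Fos and Jun family of transcription factors, is TGACTCA or TGAGTCA. The 7 letters TGANTCA (N is any base, and both strands read the same) are a looser form of it. They occurred in the 250 bases before the start of 8 of the 10 cluster genes and of none of the 26 members outside the cluster that had an entry. Among all genes with an entry, 2113 of 27025 had them, or 6.75% when counted over all 32851 entries. The matches are shown with 20 bases on either side, read in the direction of transcription, with the 7 letters in capitals, because they are a feature common to neighbours whose RNA levels in these hearts ran from 0 counts, for Mmp1a and Mmp7, to levels among the highest of the family, for Mmp3.
Mmp13 (chr9:7272459-7272505, plus strand): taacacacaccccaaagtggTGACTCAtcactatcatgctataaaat
Mmp12 (chr9:7347310-7347356, plus strand): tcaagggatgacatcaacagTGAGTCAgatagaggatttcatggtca
Mmp1b (chr9:7388093-7388139, minus strand): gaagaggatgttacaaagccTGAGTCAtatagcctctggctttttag
Mmp3 (chr9:7445756-7445802, plus strand): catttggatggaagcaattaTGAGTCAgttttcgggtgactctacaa
Mmp1a (chr9:7464048-7464094, plus strand): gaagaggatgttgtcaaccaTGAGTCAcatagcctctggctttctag
Mmp10 (chr9:7502259-7502305, plus strand): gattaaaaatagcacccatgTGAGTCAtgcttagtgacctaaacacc
Mmp20 (chr9:7628116-7628162, plus strand): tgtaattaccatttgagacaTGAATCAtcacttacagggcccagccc
Mmp7 (chr9:7692007-7692053, plus strand): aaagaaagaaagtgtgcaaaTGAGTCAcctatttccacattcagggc
The match began 35 to 95 bases before the start, and in Mmp20 it had A at N, outside the AP-1 core. Mmp8 and Mmp27, the other genes of the cluster, had no match in this window. The 6 letters GGGCGG, the core of the GC box bound by Sp1 (searched on both strands), had the opposite distribution: they preceded none of the 10 cluster genes but 20 of the 26 other members. Among all genes with an entry, 9555 of 27025 had them, or 32.7% when counted over all entries. Mmp14, the member with the smallest adjusted p in the comparison of diets, is shown as an example, with its 2 GC boxes, which do not overlap, in capitals.
Mmp14 (chr14:54431348-54431597, plus strand): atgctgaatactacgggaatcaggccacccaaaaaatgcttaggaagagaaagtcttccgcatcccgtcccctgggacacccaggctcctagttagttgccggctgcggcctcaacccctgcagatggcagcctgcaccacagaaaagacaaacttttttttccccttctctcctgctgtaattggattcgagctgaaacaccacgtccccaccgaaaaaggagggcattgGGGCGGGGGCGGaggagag
A match of letters is a description and not evidence that a factor binds there.

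Each rapamycin library held 8525162 to 12458309 counted reads, and each control library 7039514 to 10594335. Values are given as normalised CPM, counts put on a common library total after scaling by edgeR's TMM factors. Control 19 stood apart. The summed level of 5 lung and airway epithelial markers was 0.410 to 136 normalised CPM in rapamycin hearts and 0.625 to 351 in the other 9 controls, but 23990 in control 19, whose summed level of 6 cardiomyocyte markers was the lowest of all libraries (12763). Control 19 was the highest control for 11 of the 37 members that could be tested and the lowest for 9. The counts of members called and many estimates are therefore given with and without it. Calls of cell markers are given with all 20 libraries only. Rapamycin 5 was the highest rapamycin library for 12 tested members, and the next such library, rapamycin 9, was highest for 10. Transcripts of other tissues also occurred. The summed level of 4 liver markers was 319 in rapamycin 9 (median of rapamycin hearts 2.04) and at most 32.7 in controls, in control 7. The sum of 2 thymus markers was 21.2 in rapamycin 8 and 4.62 in control 17, with a median of 0 in both groups. The part of these tissues in the members' values was not tested. Over 13940 genes tested with edgeR's quasi-likelihood test, 469 passed at an adjusted p under 0.05 (Benjamini-Hochberg over all genes), 96 higher and 373 lower with rapamycin.

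None of the 37 tested members passed in either direction with all 20 libraries, where the background was 3.36% of all genes. None passed without control 19 either (background 3.38%), and the authors' deposited table of 700 genes holds no member. At an unadjusted p under 0.05, 2 members were higher and 12 lower with rapamycin (37.8% in all), against 21.7% of all genes, of which 8.21% were higher and 13.5% lower. DESeq2's Wald test called 1 of 42 members, Adamts8, at a background of 6.14%, and 15 had an unadjusted p under 0.05 (background 21.9%). The log2 fold change, rapamycin over control, was below 0 for 27 of the 37 members, or 73.0%, whereas 52.5% of all genes were below 0. The members' median was -0.11, against -0.01 over all genes. Without control 19 that median was again -0.11, with 25 members below 0, and 2 members higher and 9 lower at an unadjusted p under 0.05 (backgrounds 8.94% and 10.5%, together 19.4%). Without the 4 libraries that held lung transcripts (rapamycin 15 and controls 1, 19 and 20), 1 member was higher and 6 were lower at that level (background 17.8%), with a median of -0.08. In no member did the groups fail to overlap, and the share of all genes without overlap is not given here.

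**Figure D1:**
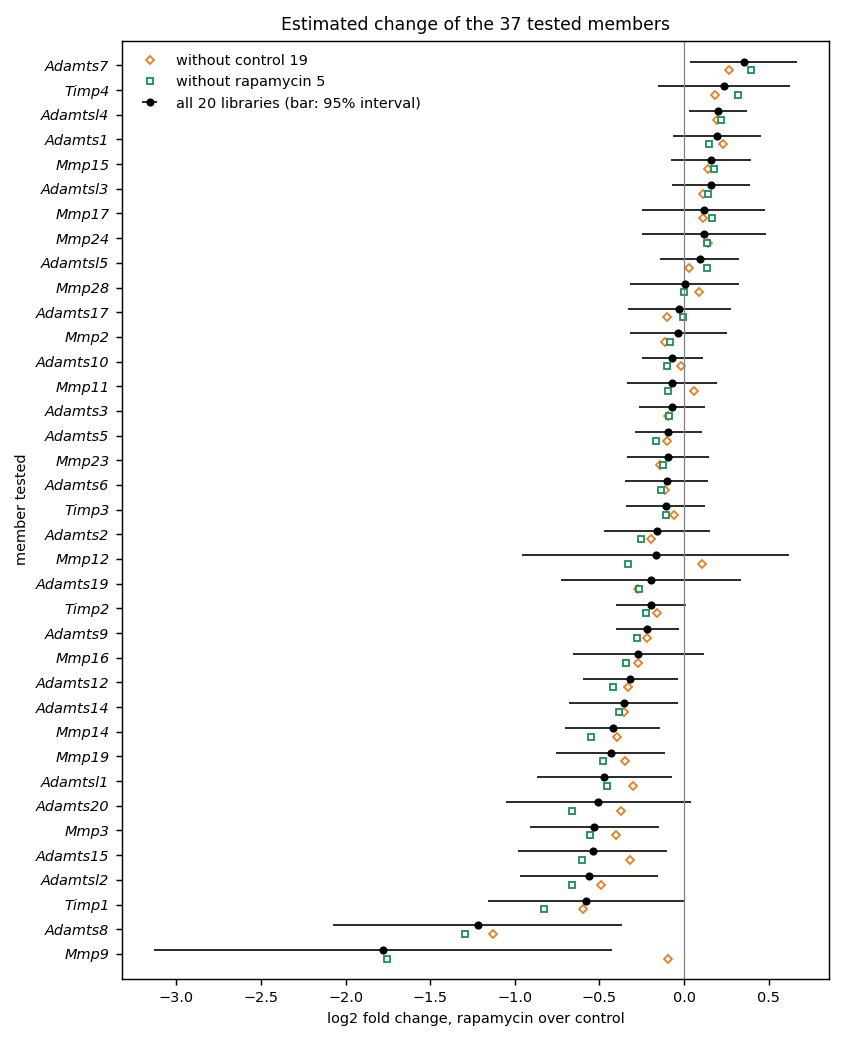
Estimated log2 fold change, rapamycin over control, of the 37 tested members (x axis), with the 95% interval over all 20 libraries as a bar and the estimates without control 19 and without rapamycin 5 as open symbols. Most estimates lie left of 0, 33 of the 37 intervals lie within 1 log2 unit of 0, and Mmp9 at the bottom moves to -0.09 when control 19 is left out.

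The intervals bound most of these differences to within 1 log2 unit or less. For 33 of the 37 members the 95% interval of the log2 fold change lay between -1 and 1. The exceptions were Adamts8, Mmp9, Timp1 and Adamts20. The standard error had a median of 0.15 over the members (0.08 to 0.65), against 0.10 over all genes.

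Compared per kilobase of exon, the inhibitor Timp2 was the most abundant member in both groups, at 44.5 ± 6.01 normalised CPM per kb in rapamycin hearts and 51.1 ± 8.99 in controls (SD, n = 10 each). Next came Mmp2, the main gelatinase, at 29.6 ± 5.65 with rapamycin and 30.3 ± 6.92 in controls. Behind Mmp2 came Adamtsl5, Adamtsl4, Mmp15, Timp3, Adamts1 and Mmp3, with means of 10.3 to 15.5 in rapamycin hearts and 9.84 to 14.95 in controls. Neighbours in that order differed by less than the larger of their SDs in rapamycin hearts. The Timp genes together made 30.9% of the family's summed level per kb with rapamycin and 32.1% in controls. The Mmp genes made 33.4% with rapamycin and 36.3% in controls, the Adamts genes 18.8% and the Adamtsl genes 16.9% with rapamycin, against 17.3% and 14.3% in controls. These control shares include control 19. The control means per kb were 6.07 for Mmp8 and 3.31 for Mmp9 with that library, but 0.479 and 1.01 without it.

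**Figure D2:**
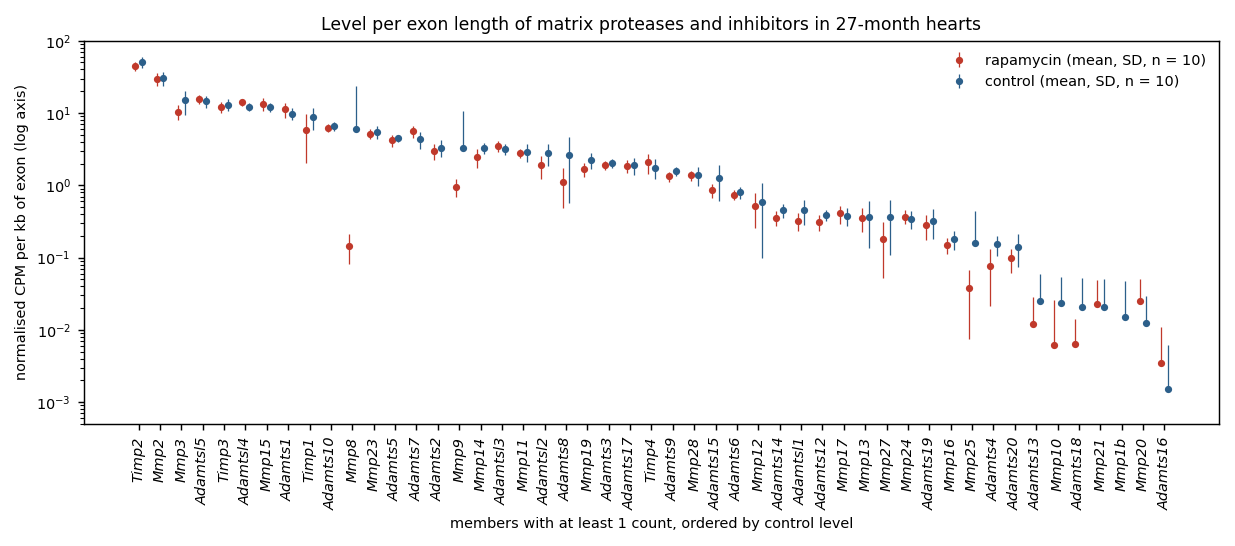
Mean level per kilobase of exon (log axis, normalised CPM per kb) of the 49 members with at least 1 count, rapamycin left of control, with SD bars over 10 hearts per diet (where the SD exceeds the mean, only the upper bar is drawn). Timp2 and Mmp2 are highest, and Mmp8 and Mmp9 have control means far above the rapamycin means, with control 19 alone at 137 and 84.8 normalised CPM.

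Among the inhibitors, Timp1 and Timp2 had lower mean levels with rapamycin, Timp3 differed little and Timp4 was higher, and none passed. Timp1, the inducible inhibitor that rises in injured and inflamed tissue, had 12.2 and 10.9 normalised CPM in rapamycin 5 and 6 and 2.50 to 5.02 in the other 8 rapamycin hearts, against 4.38 to 12.9 (median 7.37) in controls. So 6 of 10 rapamycin hearts lay below the lowest control, and the other 4 overlapped the controls. Its log2 fold change was -0.58 ± 0.28 (SE, 95% interval -1.16 to -0.0001, adjusted p = 0.230 by edgeR). Without rapamycin 5 it was -0.82 (adjusted p = 0.0562), without control 19 it was -0.60 (0.250), and without both of these libraries, a choice made after seeing the data, it passed at -0.85 (0.0466, where 4.18% of all genes were called lower).

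Timp2, which also takes part in the activation of the Mmp2 proform by Mmp14, had 141 to 212 normalised CPM (median 170.2) in rapamycin hearts and 135 to 240 (median 209) in controls. Of the rapamycin hearts, 9 lay below the control median, and control 16 was the lowest of all 20. It stood at a log2 fold change of -0.20 ± 0.10 (adjusted p = 0.254 by edgeR, and -0.16 with 0.407 without control 19). Timp3, the inhibitor that binds to the matrix itself, averaged 98.2 ± 17.3 with rapamycin and 106 ± 19.8 in controls (SD, n = 10 each; log2 fold change -0.11 ± 0.11, adjusted p = 0.604). Timp4, known for its abundance in heart, averaged 12.2 ± 3.71 with rapamycin and 10.4 ± 3.25 in controls (0.23 ± 0.19, adjusted p = 0.488). Its lowest values were in rapamycin 5 (5.67) and control 19 (6.67), the libraries in which several other members were highest. Timp1, Timp3 and Timp4 lie within the synapsin genes Syn1, Syn3 and Syn2 on the opposite strand, and 1733 exon bases of Timp3 and 90 of Timp4 are shared (GENCODE M21). The labels do not say whether counting used strand, so reads of such pairs cannot be told apart. Syn1 had 4 to 19 counts per library, Syn3 41 to 70 and Syn2 113 to 227, and none of them passed.

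The membrane-type member Mmp14 cuts collagens at the cell surface and activates Mmp2. It had the smallest adjusted p of the family. Its levels were 10.8 to 16.8 normalised CPM in 9 rapamycin hearts and 25.3 in rapamycin 5, against 13.4 to 23.0 in controls. The medians were 13.2 with rapamycin and 20.4 in controls, and 6 of 10 rapamycin hearts lay below the lowest control, while rapamycin 5 lay above every control. The log2 fold change was -0.42 ± 0.14 (95% interval -0.70 to -0.14), with an adjusted p of 0.0804 by edgeR, and -0.40 (0.109) without control 19. Without rapamycin 5 Mmp14 passed, at -0.55 ± 0.10 (adjusted p = 0.00744 by edgeR, where 4.25% of all genes were called lower). In the other 19 fits that each left out 1 library it did not.

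None of the other 4 tested membrane-type members passed either. Mmp15 was the most abundant of them, at 72.4 ± 15.6 normalised CPM with rapamycin and 64.8 ± 9.38 in controls (log2 fold change 0.16 ± 0.11, adjusted p = 0.428 by edgeR). Mmp16 had 0.625 to 1.81 with rapamycin and 0.872 to 2.20 in controls (-0.27 ± 0.19, 95% interval -0.66 to 0.12, adjusted p = 0.415). Mmp17 and Mmp24 both stood at 0.12, with adjusted p of 0.740 and 0.744.

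**Figure D3:**
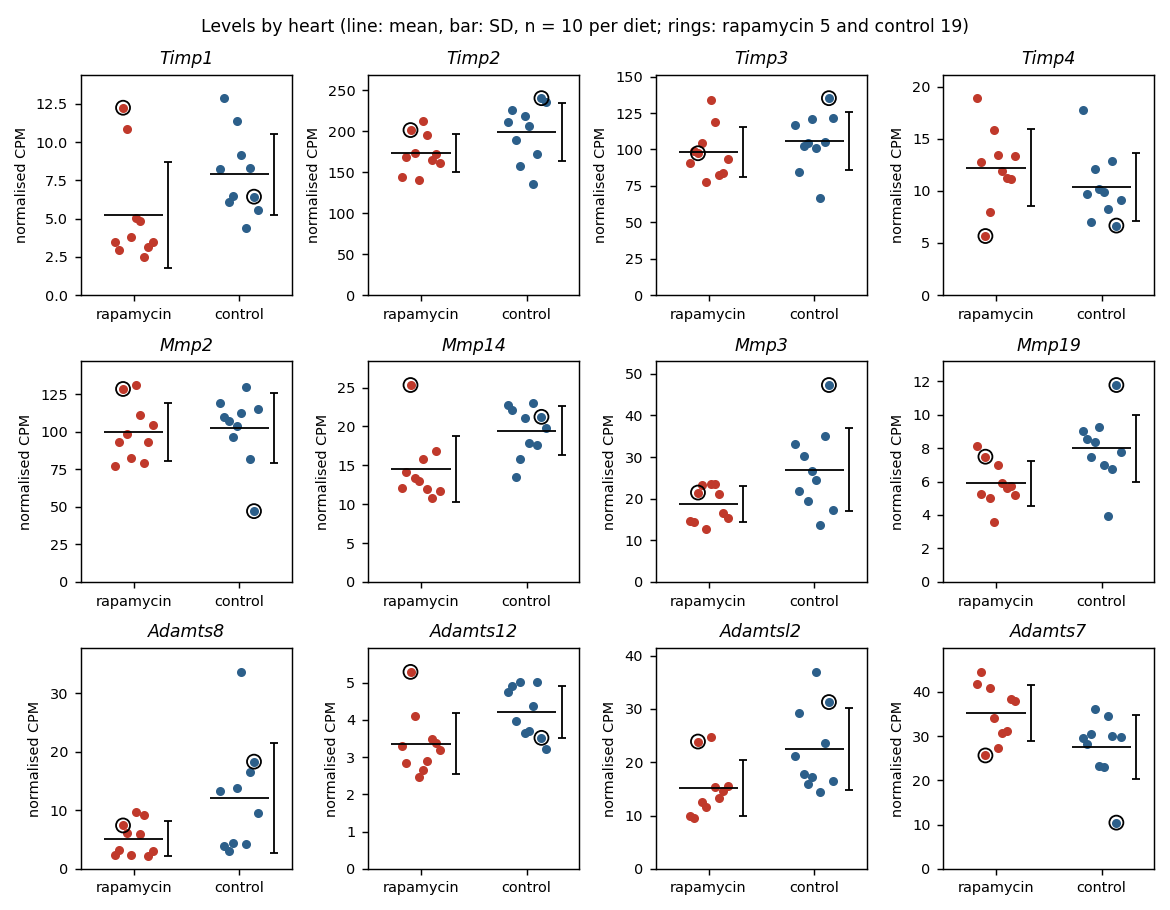
Normalised CPM of 12 members in each heart (y axes from 0), rapamycin left and control right, with the mean as a line, the SD as a bar (n = 10 per diet) and rings around rapamycin 5 and control 19. For Mmp14, Adamts12 and Timp1 the ringed rapamycin heart is the highest of its group, and for Mmp3 and Mmp19 the ringed control heart is.

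Neither gelatinase passed. Mmp2, made mainly by fibroblasts and known for cutting denatured collagen and basement membrane collagen, had 76.9 to 131 normalised CPM (median 95.7) in rapamycin hearts and 47.1 to 130 (median 108) in controls. The lowest control was control 19 and the next was 81.5, inside the rapamycin range. The log2 fold change was -0.03 ± 0.14 (95% interval -0.32 to 0.25, adjusted p = 0.915 by edgeR), and -0.11 (0.596) without control 19. Mmp9, stored in neutrophil granules and made by activated macrophages, had 2.01 to 5.18 (median 3.17) in rapamycin hearts and 2.08 to 7.85 in 9 controls, but 84.8 in control 19. Its log2 fold change was -1.78 ± 0.65 (adjusted p = 0.120 by edgeR) with that library and -0.09 (0.882) without it.

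The secreted collagenases were scarce. Mmp8, the neutrophil collagenase, had 35 counts in all rapamycin hearts together and 1233 in all controls, of which 1128 were in control 19. Its level was 0.111 to 0.658 normalised CPM in rapamycin hearts and 0 to 4.65 in the other 9 controls, against 137 in control 19. Mmp25, a membrane-type member of leukocytes, had 0 to 0.605 in rapamycin hearts and 0.183 to 1.004 in the other controls, but 4.97 in control 19. Neither passed the count filter. Control 19 held most of the Mmp8 reads, and 41 of the 96 Mmp25 reads of all libraries. With no filter on low counts Mmp8 was called lower (log2 fold change -5.22 ± 1.28, adjusted p = 0.0440 by edgeR, where 1.16% of all genes were called lower), a value that rests on control 19. The summed level of 8 neutrophil markers, all detected, was 9.82 to 52.0 (median 16.3) in rapamycin hearts and 11.9 to 180 in the other controls (median of all 10 controls 24.7), against 2609 in control 19. Of the 4 tested neutrophil markers 3 were called lower with all 20 libraries, control 19 included, where 2.68% of all genes were called lower. The part of neutrophils or of lung tissue in these values was not tested.

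**Figure D4:**
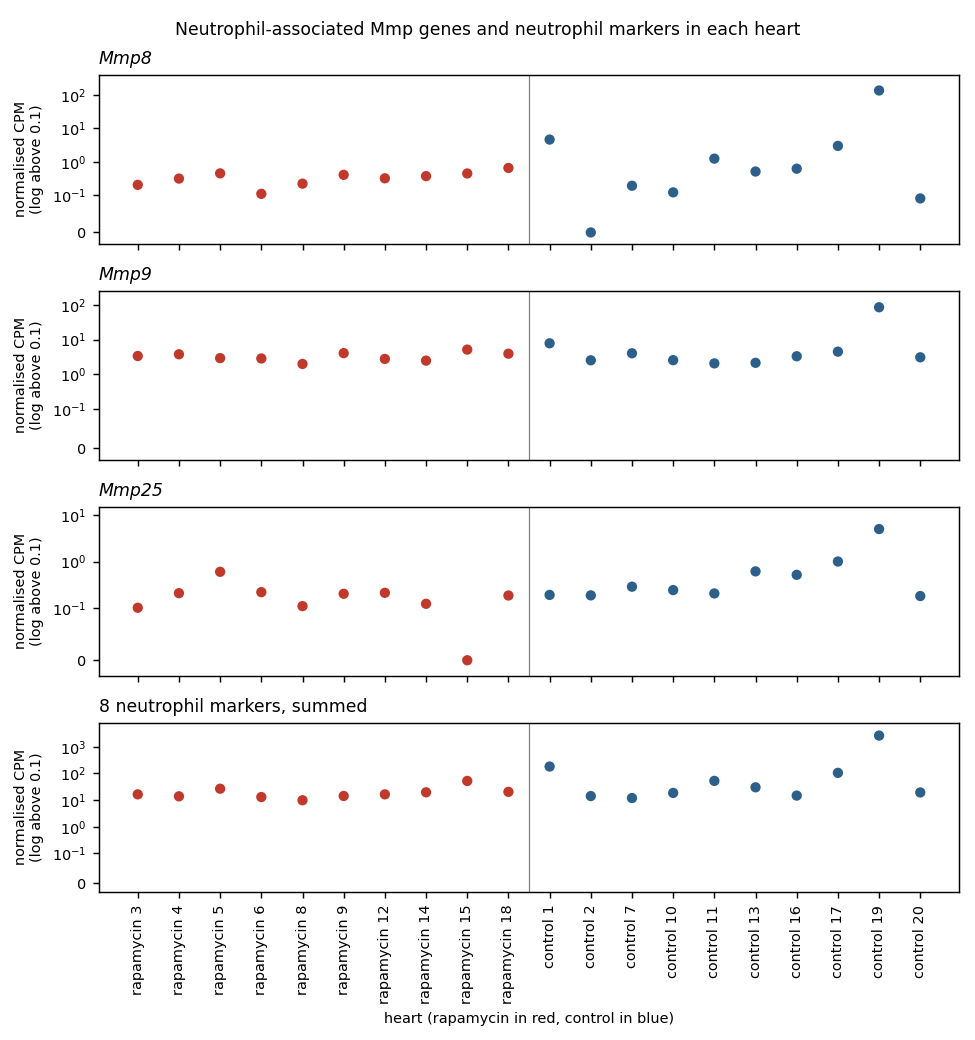
Normalised CPM of Mmp8, Mmp9 and Mmp25 and the summed level of 8 neutrophil markers in each heart (y axes linear up to 0.1 and logarithmic above), rapamycin left and control right. Control 19 is the highest point in all 4 panels, at 137, 84.8, 4.97 and 2609.

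Mmp13, the main interstitial collagenase of rodents, had 94 counts over the rapamycin hearts and 96 over the controls, at 0.335 to 1.44 normalised CPM with rapamycin and 0.417 to 2.29 in controls. The rodent collagenase genes Mmp1a and Mmp1b had 0 and 0 counts with rapamycin, and 0 and 2 in controls. Mmp7, or matrilysin, also had 0 in every library. A count of 0 allows up to 0.0297 CPM over the rapamycin libraries and 0.0319 CPM over the controls (3 counts of the summed effective totals, covering counting error only).

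Of the stromelysins, Mmp3, which cuts many matrix proteins and activates other proforms, had a lower mean with rapamycin. Its levels were 12.8 to 23.5 normalised CPM (median 18.8) in rapamycin hearts and 13.6 to 47.3 (median 25.5) in controls. All 10 rapamycin hearts lay below the control median, and the highest value was that of control 19. The log2 fold change was -0.53 ± 0.18 (95% interval -0.91 to -0.15, adjusted p = 0.103 by edgeR). It was -0.40 (0.175) without control 19, and without control 16, the lowest control, it passed narrowly at -0.61 (0.0489, where 2.89% of all genes were called lower). Mmp10 had 1 count with rapamycin and 4 in controls. Mmp11, grouped with the stromelysins by name, had 6.4997 to 9.46 with rapamycin and 6.25 to 14.1 in controls (-0.07 ± 0.13, adjusted p = 0.791), and 0.06 without control 19. Its exons overlap those of Chchd10 on the other strand by 155 bases, and Chchd10 had 869 to 3138 counts.

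Mmp12, the macrophage elastase, had 1.505 to 7.18 normalised CPM (median 3.29) in rapamycin hearts and 1.51 to 11.04 (median 2.57) in controls. The highest controls were control 19 and control 2 (10.6), and the other 8 lay within the rapamycin range. The estimate was a log2 fold change of -0.17 ± 0.38 (95% interval -0.96 to 0.62, adjusted p = 0.838 by edgeR), and 0.11 without either of those controls. Mmp19, a secreted member found in several tissues, had 3.57 to 8.12 (median 5.68) with rapamycin and 3.96 to 11.8 (median 8.07) in controls, with 9 of 10 rapamycin hearts below the control median. Its log2 fold change was -0.43 ± 0.16 (adjusted p = 0.114 by edgeR), -0.35 (0.186) without control 19, and -0.51 (0.0409), past the threshold, without control 16. Mmp23 (-0.09 ± 0.12, adjusted p = 0.678) and Mmp28 (0.00 ± 0.16, 0.994) stood near 0.

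Cell marker levels also differed between the hearts. Of 14 macrophage markers, all detected and tested, 10 were called lower with rapamycin over all 20 libraries, control 19 included, where 2.68% of all genes were. Their summed level was 605 to 1160 normalised CPM (median 701) in rapamycin hearts and 841 to 3756 (median 1129) in controls. Rapamycin 5 was the highest rapamycin heart in that sum, also when Lyz2 was left out (757, and 572 in the next). Control 19 was the highest control through Lyz2 alone, at 2972 of its 3756. Without Lyz2 it stood at 784, and controls 2, 11 and 13 were higher. Of 8 fibroblast markers none was called, and their sum was 2096 to 3627 (median 2976) with rapamycin and 2292 to 3678 (median 3100) in controls. Rapamycin 5 stood at 3009 in that sum, but its Gsn was the lowest of its group (1012), and without Gsn it was the highest rapamycin heart (1997, and 1855 in the next). Of 6 mesothelial markers 1 was called lower (background 2.68%), with sums of 37.7 to 120 with rapamycin and 64.0 to 220 in controls. Control 19 was highest there, but without the keratin Krt19 it stood at 153, below control 11 at 196. The 6 cardiomyocyte markers, none called, summed to 37634 to 50315 (median 46188) in rapamycin hearts, where rapamycin 5 was the lowest, and to 12763 to 46037 (median 36357) in controls. Of 4 T and B cell markers 1 was called lower (background 2.68%). Their sum was 3.21 to 39.7 (median 9.40) with rapamycin and 10.1 to 149 (median 25.4) in controls. Lyz2, Gsn and Krt19 were left out after their values were seen. No defining marker of these 5 lists was at 0 in every library. The part of these cells in the members' values was not tested.

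The ADAMTS proteases that cut proteoglycans such as versican and aggrecan had 5 of 6 tested genes below 0, none of them called. Adamts8 gave the largest estimate among Adamts genes. Its levels were 2.14 to 9.74 normalised CPM (median 4.64) in rapamycin hearts and 3.00 to 33.7 (median 11.4) in controls. All 10 rapamycin hearts lay below the control median, yet 4 controls (2, 7, 10 and 16) had only 3.00 to 4.42, so the controls themselves split widely. For Adamts8 the log2 fold change was -1.22 ± 0.41 (95% interval -2.07 to -0.36, adjusted p = 0.0928 by edgeR), -1.13 (0.129) without control 19, and -1.21 (adjusted p = 0.0470) by DESeq2. Exons of Adamts8 share 489 bases with the antisense gene Gm29724, which was not analysed here.

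Adamts15 had 5.80 to 12.3 normalised CPM with rapamycin and 7.24 to 18.5 in 9 controls, with 30.0 in control 19. Its log2 fold change was -0.54 ± 0.21 (adjusted p = 0.144 by edgeR), and -0.32 (0.269) without that library. Adamts9 had 15.9 to 27.2 with rapamycin and 18.3 to 28.4 in controls (-0.22 ± 0.09, adjusted p = 0.164), and passed without rapamycin 5 (-0.28, 0.0487). Adamts1, the most abundant protease of the group, averaged 59.7 ± 13.9 with rapamycin and 52.2 ± 9.40 in controls (0.20 ± 0.12, adjusted p = 0.374). Adamts5 (-0.09 ± 0.10, adjusted p = 0.604) and Adamts20 (-0.51 ± 0.26, 0.264) did not pass, and Adamts4 was not tested, with 37 counts over the rapamycin hearts and 72 over the controls.

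The procollagen processors Adamts2, Adamts3 and Adamts14 remove the amino-terminal propeptide of fibrillar collagens. All 3 were below 0 and none was called. Adamts2 averaged 27.8 ± 6.97 normalised CPM with rapamycin and 31.1 ± 8.30 in controls (log2 fold change -0.16 ± 0.15, adjusted p = 0.568 by edgeR). Adamts14 had 1.37 to 2.55 with rapamycin and 1.51 to 3.34 in controls, with 9 rapamycin hearts below the control median (-0.36 ± 0.15, adjusted p = 0.182). Adamts3 stood at -0.07 ± 0.09 (0.698).

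The pair that cuts cartilage oligomeric matrix protein had estimates of opposite sign. Adamts7, also known from human studies of coronary artery disease, had 25.6 to 44.5 normalised CPM (median 36.0) in rapamycin hearts and 10.4 to 36.1 (median 29.7) in controls, with 8 rapamycin hearts above the control median. The lowest control was control 19 and the next had 23.1. Its log2 fold change was 0.35 ± 0.15 (adjusted p = 0.184 by edgeR), and 0.26 (0.164) without control 19. Adamts12 had 2.45 to 5.29 (median 3.24) with rapamycin and 3.21 to 5.03 (median 4.17) in controls, with 9 rapamycin hearts below the control median and rapamycin 5 above every control. Its log2 fold change was -0.32 ± 0.14 (adjusted p = 0.174 by edgeR), and it passed without rapamycin 5 at -0.42 (0.0441). Exons of Adamts7 overlap those of Tbc1d2b by 122 bases on the other strand, and Tbc1d2b had 250 to 493 counts and did not pass.

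The remaining proteases of the group differed little. Adamts10 and Adamts6, related genes of which the first binds microfibrils of fibrillin, stood at -0.07 ± 0.09 (adjusted p = 0.680 by edgeR) and -0.10 ± 0.12 (0.645). Adamts10 averaged 51.6 ± 6.90 normalised CPM with rapamycin and 54.2 ± 7.20 in controls. Adamts17 (-0.03) and Adamts19 (-0.20) had adjusted p of 0.938 and 0.692. Adamts13, which cuts von Willebrand factor and is made chiefly in liver, had 6 counts over the rapamycin hearts and 12 over the controls. Adamts16 had 2 with rapamycin and 1 in controls, and Adamts18 had 6 with rapamycin and 20 in controls. The untested Mmp20, known from tooth enamel, had 8 counts with rapamycin and 4 in controls, Mmp21 had 6 and Mmp27 38 with rapamycin, against 5 and 78 in controls.

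Of the 5 ADAMTS-like genes, Adamtsl2 and Adamtsl1 had lower means with rapamycin and the other 3 higher ones, and none passed. Adamtsl2, a fibrillin-associated protein whose loss causes geleophysic dysplasia in humans, had 9.60 to 24.7 normalised CPM (median 13.9) in rapamycin hearts and 14.4 to 36.96 (median 19.5) in controls. The rapamycin hearts above the control median were 5 and 9, at 23.9 and 24.7. The log2 fold change was -0.56 ± 0.20 (95% interval -0.97 to -0.15, adjusted p = 0.106 by edgeR), -0.49 (0.164) without control 19, and -0.66 (0.0488), past the threshold, without rapamycin 5. Adamtsl1 had 2.23 to 6.35 with rapamycin and 4.02 to 11.5 in controls (-0.47 ± 0.19, adjusted p = 0.157), or -0.30 (0.294) without control 19, its highest library. Adamtsl4, which binds fibrillin in the fibers that hold the eye lens, averaged 59.3 ± 6.89 with rapamycin and 51.6 ± 7.05 in controls (0.20 ± 0.08, adjusted p = 0.159). It and Adamts7 were the members with an unadjusted p under 0.05 in the upward direction. Adamtsl3 (0.16 ± 0.11) and Adamtsl5 (0.09 ± 0.11) had adjusted p of 0.412 and 0.669.

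Which members passed depended on the hearts that entered the fit. Leaving out each heart in turn gave no call in 18 of the 20 fits. Without rapamycin 5 there were 4 calls, Mmp14, Adamts12, Adamts9 and Adamtsl2, all lower. In that fit 4.25% of all genes were called lower, against 2.68% with all 20 libraries. Without control 16 there were 2, Mmp19 and Mmp3, both lower, where 2.89% of all genes were called lower. No fit that left out 1 heart called a member higher.

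**Figure D5:**
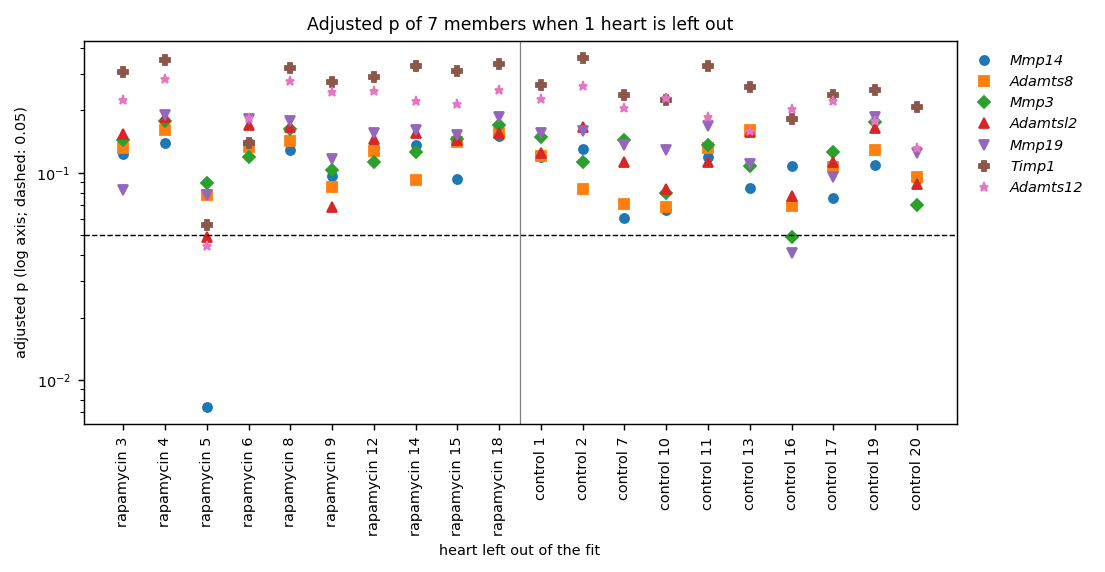
Adjusted p (y axis, log scale) of 7 members in the 20 edgeR fits that each left out 1 heart (x axis, rapamycin hearts left of control hearts), with the threshold of 0.05 dashed. The points lie above the line except Mmp14, Adamts12 and Adamtsl2 without rapamycin 5 and Mmp19 and Mmp3 without control 16.

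Genes that act on or beside the family were examined as 3 lists. Of 32 activators, inhibitors and regulators 28 were tested, none was called higher and 2 were called lower (background 2.68%), both cysteine cathepsins of the lysosome that can also cut matrix when secreted. Cathepsin S, Ctss, expressed mainly in macrophages and other antigen-presenting cells, averaged 37.6 ± 13.2 normalised CPM with rapamycin and 87.1 ± 53.0 in controls (SD, n = 10 each). Of the rapamycin hearts 9 lay below the lowest control, and the highest rapamycin value was 73.8. It fell by 1.21 on the log2 scale (SE 0.27, adjusted p = 0.0202 by edgeR), and by 1.02 (0.0208) without control 19. Cathepsin L, Ctsl, averaged 169 ± 10.3 with rapamycin and 206 ± 22.8 in controls, and fell by 0.29 (SE 0.06, adjusted p = 0.0176), with 6 rapamycin hearts below the lowest control. Both were called in all 20 fits that left out 1 heart. The list's median log2 fold change was -0.15, with 1 gene higher and 7 lower at an unadjusted p under 0.05, where 8.21% of all genes were higher and 13.5% lower. The median macrophage sum was 701 in rapamycin hearts and 1129 in controls, and its part in the cathepsin values was not tested.

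Of 28 matrix substrates 25 were tested and none was called by edgeR, with 2 higher and 1 lower at an unadjusted p under 0.05 (all genes 8.21% and 13.5%) and a median of -0.08 (-0.13 without control 19). The smallest p belonged to the laminin chain gene Lama4 (0.22 ± 0.10, adjusted p = 0.193), to elastin, Eln (-0.29 ± 0.13, 0.1999, and -0.19 with 0.371 without control 19), and to Lama2 (0.24 ± 0.11, 0.217). Of 12 ADAM genes, membrane-bound relatives that shed cell-surface proteins, 10 were tested and none was called, with none higher and 3 lower at an unadjusted p under 0.05, against the same 8.21% and 13.5% of all genes, and a median of -0.17. Adam8, a leukocyte sheddase, stood at -1.58 ± 0.47 (adjusted p = 0.0620), or -0.95 (0.119) without control 19. Adam33 stood at -0.54 ± 0.17 (adjusted p = 0.0793) and Adam19 at -0.29 (0.202). Adam8 had 1.69 to 4.39 normalised CPM in rapamycin hearts and 1.85 to 32.6 in controls.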

How the data were processed

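Per the labels, RNA purified with oligo-dT from 20 hearts gave paired-end reads of 50 bp, placed only where they matched MGSCv37 once with no more than 2 mismatches. No source used here names an aligner, a counter or a strand setting. The submitters' processing notes list edgeR, with no role. The authors deposited raw counts per gene symbol, used for every test, and CPM of 700 genes, none a member. Nothing in the labels says more about the replicates than that each is 1 heart sample.

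Here, genes passing edgeR's filterByExpr were fitted over all 20 libraries with TMM scaling and the quasi-likelihood test (R 4.3.3, edgeR 4.0.16, limma 3.58.1), with Benjamini-Hochberg adjustment over 13940 genes and a threshold of 0.05. The common biological coefficient of variation was 0.202. Levels per kb used exon lengths of GENCODE M21, a different build. The exon overlaps between genes were taken from its coordinates. Alternatives were DESeq2 1.42.0, relative log expression factors, a robust fit, no filter, and fits without given libraries. The procedure was tested on simulated data. Members and lists were chosen with earlier results of these data known. Full values are given for members passing with all libraries or without control 19, the Timp genes, Mmp2, Mmp9, Mmp14, and the 2 smallest p per subfamily. Other genes were named after their values were seen. Read precision is counting error only, at a depth of 7039514 to 12458309 counted reads per library. The filter left out 14 members.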

Additional observations from a re-analysis of the deposited data

Results flagged for a closer look

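The 10 libraries of each diet were examined for 40 members (the 37 tested, and Mmp8, Mmp13 and Mmp25) and the 8 related genes named in the text, 96 groups in all. In 18 cases a value stood far from the rest of its group (gap to the nearest library over the group's range above Dixon's 95% critical value). Chance gives such a value in about 1 in 20 groups that are independent and normally distributed. The 96 groups share libraries, and some genes were picked after their values were seen, so the 18 cases cannot be judged against that rate. Control 19 held 11 of them and rapamycin 5 held 3. Among the members, control 19 was the highest control for Mmp8 at 136.8 normalised CPM (next control 4.65), Mmp9 at 84.8 (7.85), Mmp25 at 4.974 (1.004), Mmp11 at 14.07 (9.11), Adamts15 at 29.97 (18.5) and Adamtsl1 at 11.53 (6.87). It was the lowest control for Adamts7 at 10.43 (next 23.1) and Adamtsl5 at 36.52 (64.9). Rapamycin 5 had 25.32 for Mmp14 (next rapamycin heart 16.8) and 0.6047 for Mmp25 (0.222), and control 13 had 33.67 for Adamts8 (18.3). Among the related genes, Ctss had 73.85 in rapamycin 5 (next 38.7), and Eln had 73.89 in rapamycin 9 (50.8) and 84.56 in control 19 (60.1). Lama2 had 63.33 in control 19, the lowest control (103). Adam8 had 4.391 in rapamycin 15 (2.92) and 32.63 in control 19 (11.4), and Adam33 had 9.459 in rapamycin 3 (5.80). Control 19 also had the highest lung and neutrophil marker sums, and rapamycin 5 the highest macrophage sum of its group. The part of those cells in the outlying values was not tested.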

How the results depend on the processing

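The count of members called was 0 with all 20 libraries, with relative log expression factors, in the robust fit, without control 19 and without the 4 libraries holding lung transcripts. It was 1, lower, by DESeq2 (Adamts8, with 6.14% of all genes called in either direction). With no filter it was also 1, lower (Mmp8, -5.22, with 1.16% of all genes called lower). Without control 19 and rapamycin 5 together, a choice made after seeing the data, it was 4, lower (4.18% of all genes were called lower). These were Mmp14, Adamts12, Adamts9 and Timp1. Leaving out 1 library gave 0 to 4 members lower and 0 higher. Over all genes the counts were 96 higher and 373 lower, against 327 and 691 by DESeq2, 376 and 582 without both libraries, 59 higher with no filter and 192 lower without the 4 lung libraries. Leaving out 1 library gave 23 to 197 higher and 142 to 594 lower. Of 598 log2 fold changes of named members under other settings, 579 kept direction and call, 9 gained a call and 10 changed sign. None that changed sign was called: Mmp11 (0.0894 without the 4 lung libraries, 0.0291 without control 19 and rapamycin 5, and -0.1058 to 0.056 over fits without 1 library, the highest without control 19), Mmp12 (-0.3283 to 0.1083 over fits without 1 library, and 0.1062 and 0.1083 without control 2 and control 19), Mmp2 (-0.1117 to 0.0099 over fits without 1 library, above 0 at 0.0053 without rapamycin 3, 0.0027 without rapamycin 14, 0.0099 without control 16), Mmp9 (0.0604) and Timp3 (0.0368), both without the 4 lung libraries. The cause was not tested. No paired analysis was possible because each replicate number occurs in 1 diet only. Of the 14 members left out by the count filter, 13 had at most 190 counts over all 20 libraries, and Mmp8 had 1128 of its 1268 in control 19.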
